A study of Homo sapiens with 27 samples.

Results

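The genes that copy DNA were read in every RNA library made from SHP77 cells, a line grown from a human small cell lung carcinoma. The members are 44 protein-coding genes of origin licensing, the replisome and nucleotide synthesis, taken as the rows whose Ensembl gene ID maps to the listed symbols. All 44 were present once in each deposited table, among 41686 human genes in the table of the shRNA libraries and 34742 in the table of the siRNA libraries, and all 44 passed the filter of a mean of at least 10 normalized counts. The knockdown cells of the first table carried circRMST shRNA 1 or circRMST shRNA 2 (n = 2 each), set against a short hairpin to GFP (shGFP, n = 2). circRMST is a circular RNA of the long non-coding gene RMST, and all 6 libraries came from stably transduced cells under puromycin at 3 µg/ml and were made from total RNA. The groups of the second table had been transfected with SOX2 siRNA 1 or 2 or NKX2-1 siRNA 1 or 2 (n = 2 each), set against si-control (n = 3), for 72 hours before poly(A) RNA was taken. SOX2 and NKX2-1 are transcription factors that the series describes as partners of circRMST. All groups share a single cell line, so that no other line or patient sample stands behind any value. Of the 27 samples in the series, 10 are of ChIP-seq and were not used here.

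Replication starts with licensing in G1. The origin recognition complex (ORC), CDC6 and CDT1 load rings built of the MCM2 to MCM7 proteins onto DNA, and geminin (GMNN) later holds CDT1 back so that no origin is licensed again in the same cycle. In S phase CDC45 and the GINS complex join the ring and make it an active helicase, DNA polymerase alpha with primase starts each strand, and polymerases delta and epsilon extend the strands on the PCNA clamp, which replication factor C (RFC) loads. RPA covers the single strands, FEN1 and LIG1 finish the lagging strand, and thymidylate synthase, thymidine kinase and ribonucleotide reductase supply the nucleotides. Many of these genes are textbook targets of the E2F transcription factors and of RB, a tumour suppressor that small cell lung cancer commonly loses.

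Recovered depth was 46.9 to 57.4 megareads (M) per shRNA library and 15.5 to 50.1 M per siRNA library. In the total RNA libraries mitochondrial genes took 48.4 to 51.5% of the reads with circRMST shRNAs, against 46.5 and 47.6% in shGFP, most of it on the rRNA gene MT-RNR2. In the poly(A) libraries they took 6.90 to 8.96% with SOX2 siRNAs and 7.16 to 8.75% with NKX2-1 siRNAs, against 9.95 to 10.3% in si-control, and the part of these shares in the results was not tested. In the total RNA libraries the 7SL RNA genes took 0.379 to 0.467% with circRMST shRNAs, against 0.180 and 0.186% in shGFP. The targeted genes were read first. SOX2 had 396 and 389 normalized counts with SOX2 siRNA 1 and 466 and 439 with SOX2 siRNA 2, against 1190.5, 1152 and 1084 in si-control, and NKX2-1 had 959 and 1070.0 normalized counts with NKX2-1 siRNA 1 and 836 and 796 with NKX2-1 siRNA 2, against 2199, 2357 and 2145 in si-control. Each target was higher when the other was knocked down. SOX2 had 2285 and 2242 normalized counts with NKX2-1 siRNA 1 and 2098 and 2252 with NKX2-1 siRNA 2 (0.96 ± 0.051 on the log2 scale against si-control), and NKX2-1 had 2764 and 2446 with SOX2 siRNA 1 and 2608 and 2531 with SOX2 siRNA 2 (0.21 ± 0.050), both with adjusted p under 0.05 in limma. The RMST entry had 289 and 262 normalized counts with shRNA 1 and 234 and 285 with shRNA 2, against 275 and 304 in shGFP, but it counts the whole gene and so does not check the circular RNA. All 6 neuroendocrine markers read here (CHGA, DLL3, GRP, INSM1, NCAM1 and SYP) were measured in both tables, as the labelled cell type calls for. Of 12 markers of stroma, vessels and blood, 4 passed the filter in each table, and their summed level over the list was 544 to 959 normalized counts with circRMST shRNAs, against 588 and 655 in shGFP. In the siRNA libraries the same sum over the 10 of 12 markers in the table was 214 to 555 normalized counts with the SOX2 or NKX2-1 siRNAs, against 437 to 464 in si-control. At 0 in at least 1 library of the first table were CD3E, CD68, COL1A1, COL1A2, DCN, HBB, PDGFRB, PTPRC and VWF, and in the second CD68, CDH5, COL1A2, DCN, PDGFRB and PTPRC.

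With circRMST knocked down, replication genes were found on both sides of the control, the higher ones at a share close to that of all genes. Below, a gene passed where the adjusted p was under 0.05 in limma over all genes tested (Benjamini-Hochberg, two-sided), and a difference is on the log2 scale of normalized count plus 1, averaged over both reagents, with its SE. Of the 44 members, 12 were higher and 18 lower than in shGFP, where 27.8% of the 19068 genes tested were higher and 25.9% lower. Both shRNAs passed alone in the same direction for 10 higher members (all genes, 19.6%) and 16 lower ones (17.4%), and no member had its shRNAs pass in opposite directions (0.519%). All 4 knockdown libraries lay above both shGFP libraries for 12 members (28.6% of all genes) and below both for 18 (28.2%). The median difference of the members was -0.055, against 0.0015 over all genes tested, and -0.096 without shGFP replicate 2. The share of genes called lower among those called depends on the scaling. With equal library totals 10 members were higher and 26 lower, 3636 of all genes were higher and 6513 lower, against 5294 and 4936, the median of all genes moved to -0.14 and that of the members to -0.20. No member that passed changed direction under any scaling, and TYMS and RFC2 no longer passed with equal totals, with quantile normalization, or with equal totals without mitochondrial and 7SL genes. In bulk RNA, fewer cells that replicate their DNA and less RNA per cell cannot be told apart.

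**Figure D1:**
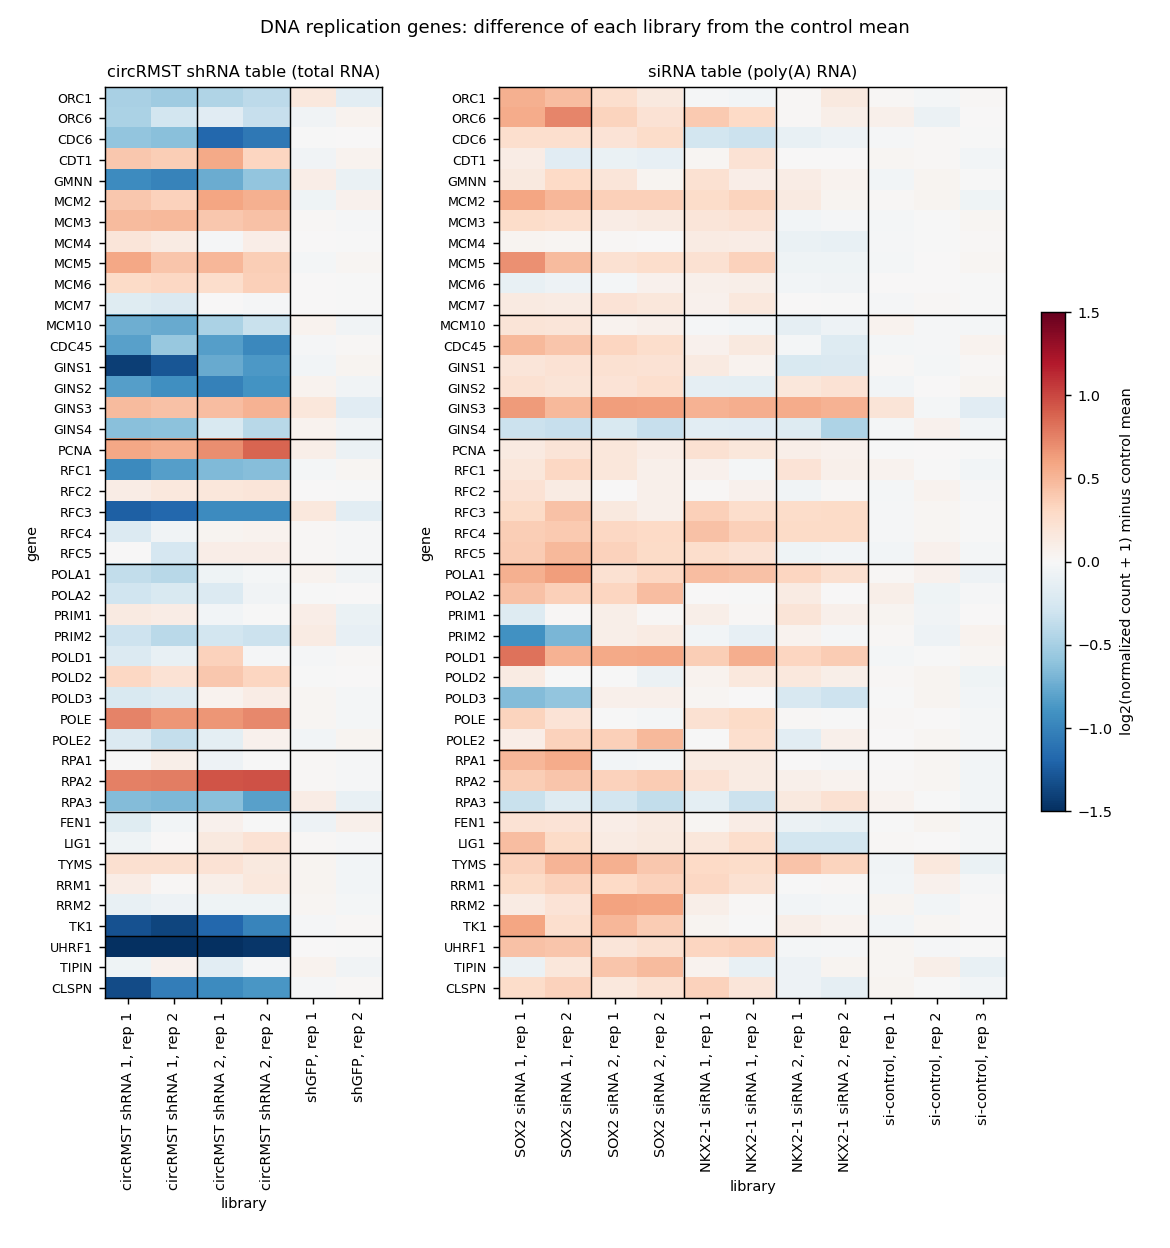
Each cell is the log2(normalized count + 1) of 1 library minus the mean of its controls, for the 44 replication genes (rows, grouped by role with black lines) in the shRNA libraries (left panel) and the siRNA libraries (right panel). Colours stop at 1.5 in either direction, which UHRF1 passes in the circRMST knockdown. The left panel holds both strong red and strong blue rows with circRMST shRNAs, while most rows are red with SOX2 siRNAs.

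Among the 11 licensing genes, 5 were higher and 4 lower with circRMST shRNAs. The higher ones were CDT1 and 4 of the 6 genes of the MCM ring. MCM2 had 4892 and 4690.4 normalized counts with shRNA 1 and 5586 and 5361 with shRNA 2, against 3543 and 3849 in shGFP, a difference of 0.47 ± 0.053 (adjusted p = 9.45e-08). MCM3 (0.45 ± 0.046), MCM5 (0.46 ± 0.064) and MCM6 (0.30 ± 0.057) were higher by similar amounts. MCM4 (0.097 ± 0.047) and MCM7 (-0.10 ± 0.046) did not pass on average. With shRNA 1 alone MCM4 passed as higher and MCM7 as lower (-0.20), and with shRNA 2 alone neither passed. CDT1, which brings the ring to the origin, had 842 and 821 normalized counts with shRNA 1 and 947 and 798 with shRNA 2, against 612 and 661 in shGFP (difference 0.42 ± 0.088, adjusted p = 0.000323). All 4 knockdown libraries stood above both controls for MCM2 and CDT1.

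The loader CDC6 went the other way. It had 2379.7 and 2328 normalized counts with shRNA 1 and 1597 and 1713 with shRNA 2, against 3572 and 3628 in shGFP, a difference of -0.87 ± 0.059 (adjusted p = 1.58e-11), so that the libraries of both shRNAs lay below shGFP and those of shRNA 2 lay lowest. GMNN, the inhibitor of CDT1, had 768 and 738 normalized counts with shRNA 1 and 878 and 983 with shRNA 2, against 1586 and 1376 in shGFP (difference -0.82 ± 0.081, adjusted p = 1.04e-08). Its 4 knockdown libraries all lay far below both controls. ORC1 (-0.47 ± 0.091) and ORC6 (-0.32 ± 0.076), subunits of the origin recognition complex, were lower as well.

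Of the 6 genes that turn the loaded ring into a helicase, 5 were lower and 1 higher. GINS1 (ENSG00000101003.9, GRCh38.p14 chromosome 20, 25407673 to 25448563) had 947 and 1035 normalized counts with shRNA 1 and 1495 and 1388 with shRNA 2, against 2453 and 2594 in shGFP, a difference of -1.08 ± 0.069 (adjusted p = 5.54e-12). GINS2 had 3414 and 3206 normalized counts with shRNA 1 and 3015 and 3261 with shRNA 2, against 6286 and 5878 in shGFP (-0.92 ± 0.056). CDC45 had 1116 and 1327 normalized counts with shRNA 1 and 1111 and 1006 with shRNA 2, against 1942 and 1988 in shGFP (-0.79 ± 0.076, adjusted p = 7.08e-09). For each of these 3 genes the knockdown and control libraries did not overlap. MCM10, a factor of helicase activation, was lower (-0.57 ± 0.059), as was GINS4 (-0.47 ± 0.11). GINS3 stood alone in the complex with 685 and 667 normalized counts with shRNA 1 and 681 and 709 with shRNA 2, against 553 and 439 in shGFP (difference 0.47 ± 0.098, adjusted p = 0.000271). The subunits of the GINS complex, which act as a tetramer, thus differed in direction: 3 were lower and 1 higher.

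The clamp and its loader also parted. PCNA (ENSG00000132646.10, GRCh38.p14 chromosome 20, 5114953 to 5126622) had 11087 and 10800.0 normalized counts with shRNA 1 and 12036 and 13567 with shRNA 2, against 7843 and 6969 in shGFP, a difference of 0.68 ± 0.055 (adjusted p = 3.72e-10). RFC3, a small subunit of the clamp loader, had 953 and 987 normalized counts with shRNA 1 and 1159.6 and 1160.0 with shRNA 2, against 2486 and 1993 in shGFP (-1.07 ± 0.079, adjusted p = 6.67e-11), and RFC1, the large subunit, was lower (-0.77 ± 0.059). Every PCNA value with circRMST shRNAs was above both controls, and every RFC3 value was below both. RFC2 passed as higher with 0.15 ± 0.058, but not with shRNA 1 alone (adjusted p = 0.106) or in 5 of the 6 fits that left out 1 library (adjusted p = 0.0511 to 0.110), and RFC4 (-0.039 ± 0.054) and RFC5 (-0.0096 ± 0.067) did not pass.

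Among the 9 polymerase and primase genes, 2 were higher and 3 lower. POLE, the catalytic subunit of polymerase epsilon on the leading strand, had 4666 and 4383 normalized counts with shRNA 1 and 4404 and 4556 with shRNA 2, against 2838 and 2714 in shGFP, a difference of 0.70 ± 0.054 (adjusted p = 1.62e-10). Its 4 knockdown libraries lay within a narrow band above both controls, and its partner POLE2 (-0.16 ± 0.087) did not pass. POLD2, the second subunit of polymerase delta, was higher by 0.31 ± 0.056, while POLD1 (0.0024 ± 0.099) and POLD3 (-0.065 ± 0.057) did not pass. POLA1, the catalytic subunit of polymerase alpha, had 2988 and 2906 normalized counts with shRNA 1 and 3712 and 3784 with shRNA 2, against 4028 and 3719 in shGFP (-0.22 ± 0.055, adjusted p = 0.00173). Only the shRNA 1 libraries of POLA1 stood clearly below the controls, since shRNA 2 alone gave -0.046 ± 0.064 (adjusted p = 0.581). POLA2 (-0.20 ± 0.078) and PRIM2 (-0.33 ± 0.073) were lower and PRIM1 (0.050 ± 0.060) did not pass. POLA1 and PRIM2 no longer passed without shGFP replicate 1 (adjusted p = 0.0616 and 0.0542), and POLA2 lost its call without any of 4 libraries, both shGFP ones and replicate 1 of each shRNA (0.0900 to 0.134).

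The 3 subunits of RPA, which bind single-stranded DNA as one complex, gave 3 different results. RPA2 (ENSG00000117748.9, GRCh38.p14 chromosome 1, 27891524 to 27914797) had 2669.8 and 2686 normalized counts with shRNA 1 and 3040.5 and 3062 with shRNA 2, against 1606 and 1559.5 in shGFP, the largest rise of the 44 members, 0.85 ± 0.058 (adjusted p = 1.58e-11). RPA3 had 645 and 636 normalized counts with shRNA 1 and 657 and 577 with shRNA 2, against 1095 and 939.7 in shGFP (-0.69 ± 0.090, adjusted p = 7.84e-07), and RPA1 (-0.0029 ± 0.055) did not pass. RPA3 overlaps UMAD1 over 77856 bases, and whether the counting used strand is not given in the sources used here, so its reads may be shared. FEN1 (-0.040 ± 0.057) and LIG1 (0.074 ± 0.064), which finish Okazaki fragments, did not pass.

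The largest fall of the 44 members was that of UHRF1 (ENSG00000276043.4, GRCh38.p14 chromosome 19, 4903080 to 4962154), which brings the maintenance methyltransferase DNMT1 to newly copied DNA. UHRF1 had 433 and 508 normalized counts with shRNA 1 and 709 and 761 with shRNA 2, against 2118 and 2085 in shGFP, a difference of -1.84 ± 0.083 (adjusted p = 1.28e-14). Every knockdown library was below both controls, with shRNA 1 below shRNA 2. TK1, the thymidine kinase of the salvage pathway, had 215 and 204 normalized counts with shRNA 1 and 236 and 269 with shRNA 2, against 526 and 542 in shGFP (-1.21 ± 0.12, adjusted p = 1.18e-08). CLSPN, the adaptor of the checkpoint kinase CHK1 at stalled forks, had 2704 and 3339.8 normalized counts with shRNA 1 and 3563 and 3732 with shRNA 2, against 6786 and 6941 in shGFP (-1.05 ± 0.065, adjusted p = 3.19e-12). TYMS, which makes thymidylate anew, had 1321 and 1314 normalized counts with shRNA 1 and 1300.2 and 1231 with shRNA 2, against 1149.7 and 1083 in shGFP. It passed as higher with 0.21 ± 0.070, but not with shRNA 2 alone (adjusted p = 0.0713) or without shGFP replicate 2 (0.129). RRM2 had 6253 and 6433 normalized counts with shRNA 1 and 6462 and 6457 with shRNA 2, against 6908 and 6638 in shGFP (-0.081 ± 0.048, adjusted p = 0.164), and with RRM1 (0.093 ± 0.051), the other subunit of ribonucleotide reductase, and TIPIN (-0.045 ± 0.067), a fork protection factor, it did not pass. Some reads of TYMS and UHRF1 may come from the overlapping genes ENOSF1 and ARRDC5.

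**Figure D2:**
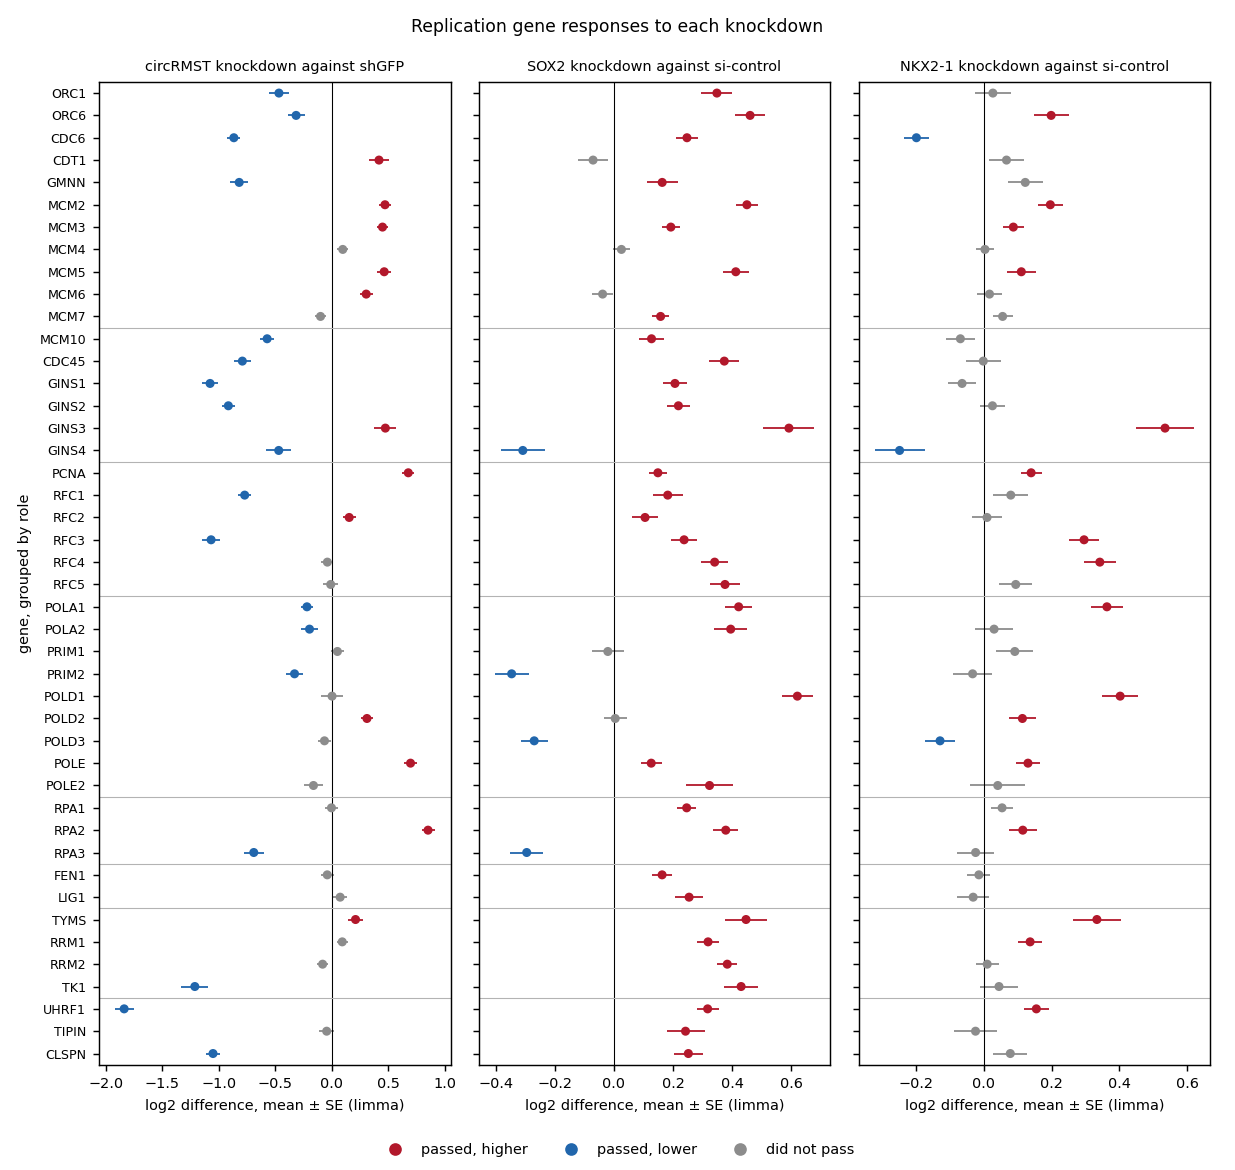
Points are log2 differences with SE bars from limma for the 44 replication genes (rows, in role order) after knockdown of circRMST, SOX2 and NKX2-1, each averaged over both of its reagents and set against its own control. Red and blue points passed the test as higher and lower and grey points did not pass, and each panel has its own axis range. The circRMST panel spans -1.84 for UHRF1 to 0.85 for RPA2, the SOX2 panel lies mostly right of 0, and the NKX2-1 panel holds 25 grey points.

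The shRNAs differed from each other in level. Set against each other, shRNA 1 gave a lower level than shRNA 2 for 14 members (8.20% of all genes) and a higher level for 1 (10.9%). UHRF1 (-0.65 ± 0.096) and GINS1 (-0.54 ± 0.079) had the largest such differences. Polymerase alpha's POLA1 (-0.35 ± 0.064) and MCM10 (-0.34 ± 0.069) followed. PCNA (-0.22 ± 0.064) and MCM2 (-0.19 ± 0.062), which were above shGFP with both shRNAs, were also lower with shRNA 1 than with shRNA 2. The exception was CDC6, higher with shRNA 1 by 0.51 ± 0.068 (adjusted p = 7.58e-06).

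Other gene lists were read in the same libraries. Of 33 further replication genes 9 were higher and 12 lower, with a median of -0.047. Among them the polymerase epsilon subunits POLE4 (0.48) and POLE3 (-0.61) passed in opposite directions, POLE3 with shRNA 1 (-1.06) and not with shRNA 2 (-0.17). The MCM-binding protein MCMBP rose by 0.56, and the clamp loader subunit DSCC1 had -0.89. Of 15 genes of the E2F family and S phase entry 6 were higher and 3 lower, with a median of 0.087. E2F5 (1.27) and cyclin E1 (CCNE1, 0.85) were the highest, E2F1 was at 0.35, and CDK2 (-0.64) was the lowest. Of 28 mitosis genes 4 were higher and 18 lower, with a median of -0.28. FOXM1 (-1.35), a transcription factor of late cell cycle genes, was the lowest and the kinase PLK1 (0.51) the highest. Of the 6 neuroendocrine markers 1 was higher (CHGA, 0.50) and 4 were lower, with GRP lowest at -2.81. Their summed level was 17330.4 to 22668 normalized counts with circRMST shRNAs, against 25542 and 27493 in shGFP. Of the 4 stroma, vessel and blood markers tested 1 was higher (LUM, 2.34) and 3 were lower. The part of these marker changes, and of the 7SL share, in the replication gene results was not tested.

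The stretch before the gene start was also read for the members. Sequences are from RefSeq (GRCh38.p14), which had a promoter window for 38 of the 44 members, and none for MCM4, MCM5, GINS4, POLD3, RPA2 and RPA3. The 100 bases that end just before the annotated start are printed 5′ to 3′ on the gene's strand, for 4 members that fell with circRMST shRNAs (UHRF1, GINS2, RFC3 and CDC6) and 4 that rose (PCNA, POLE, MCM6 and CDT1). Capitals mark every match, on either strand, to 4 words of the E2F binding motif (TTTCCCGC, TTTCGCGC, TTTGCCGC and TTTGGCGC) or to the variant TTTGGCGG, which was added after the sequences had been seen. Where RefSeq lists several starts for a gene, the first window listed was used, and the start used for UHRF1 lies inside its annotated gene, which other transcripts begin further upstream. The starts used for ORC1, PRIM2, CDC45, POLD2 and RRM2, which are not printed but are counted below, also lie inside their annotated genes. Neighbouring matches in CDT1 touch and those in MCM6 overlap. Each printed stretch holds a match, so the stretches do not stand for all members that fell or rose. No match lay in the 250 bases before the start of TK1, GINS1, CLSPN and GMNN, which fell. The same held for GINS3 and MCM2, which rose.
UHRF1, chr19:4909401-4909500, plus strand: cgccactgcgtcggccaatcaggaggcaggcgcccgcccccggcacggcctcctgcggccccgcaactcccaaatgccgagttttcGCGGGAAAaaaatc
GINS2, chr16:85688955-85689054, minus strand: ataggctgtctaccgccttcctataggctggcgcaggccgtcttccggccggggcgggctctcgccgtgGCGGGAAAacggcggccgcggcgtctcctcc
RFC3, chr13:33818049-33818148, plus strand: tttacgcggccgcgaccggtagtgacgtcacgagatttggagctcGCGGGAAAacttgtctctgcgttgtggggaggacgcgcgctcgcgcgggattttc
CDC6, chr17:40287779-40287878, plus strand: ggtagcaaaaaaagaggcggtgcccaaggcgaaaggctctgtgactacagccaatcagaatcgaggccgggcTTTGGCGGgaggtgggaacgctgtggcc
PCNA, chr20:5126623-5126722, minus strand: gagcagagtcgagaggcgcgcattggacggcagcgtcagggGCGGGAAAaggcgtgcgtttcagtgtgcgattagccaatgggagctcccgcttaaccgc
POLE, chr12:132687343-132687442, minus strand: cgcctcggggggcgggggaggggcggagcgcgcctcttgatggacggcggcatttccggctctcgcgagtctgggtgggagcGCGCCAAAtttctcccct
MCM6, chr2:135876444-135876543, minus strand: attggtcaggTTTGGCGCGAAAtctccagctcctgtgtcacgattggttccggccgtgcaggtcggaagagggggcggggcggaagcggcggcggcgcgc
CDT1, chr16:88803689-88803788, plus strand: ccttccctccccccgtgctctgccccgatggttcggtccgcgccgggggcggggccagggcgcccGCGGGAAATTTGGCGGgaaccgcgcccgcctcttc
Among the printed stretches the same word, GCGGGAAA on the gene's strand, stands in those of UHRF1, GINS2 and RFC3, which fell, and of PCNA and CDT1, which rose. It also stands before the start of TYMS, which is not printed and passed as higher. Over the 250 bases before the start, 13 of 38 members (34.2%) held at least 1 of the 4 E2F words, as did 2.8% of all 27305 windows and 3.7% of the 15843 windows of protein-coding genes. In the other lists they stood in 2 of 25 further replication genes with a window (8.0%). They also stood in 6 of 11 E2F and S phase entry genes (54.5%) and 1 of 22 mitosis genes (4.5%). The variant stood in 5 of 38 members (13.2%), CDC6, CDT1, CDC45, RFC1 and POLA2, and in 0.6% of all windows. Since it was added after the members' sequences had been seen, these shares are no test of a difference. The 4 words were present in 6 of 10 members higher with circRMST shRNAs that had a window, 5 of 16 lower ones and 2 of 12 that did not pass. CCAAT, the word of the NF-Y box, stood in 23 of 38 members (60.5%), against 33.0% of all windows. It stood in 18 of 22 mitosis genes (81.8%), 12 of 25 further replication genes (48.0%) and 4 of 11 E2F and S phase entry genes (36.4%). The words TTTGAA and TTCGAA of the cell cycle homology region (CHR), an element known from genes of G2 and mitosis, stood in 2 of 38 members (5.3%) and in 12 of 22 mitosis genes with a window (54.5%), against 14.6% of all windows. A match describes the letters only and is not a measured binding site.

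**Figure D3:**
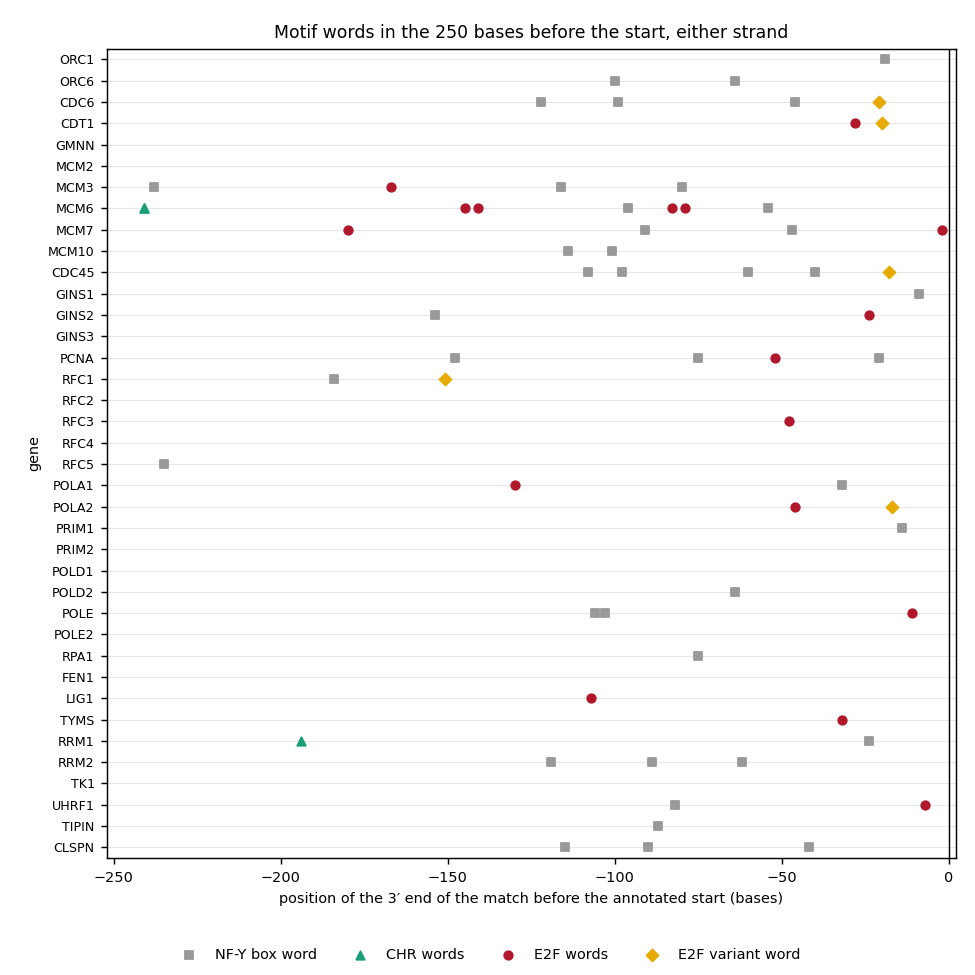
Each mark is a match to a motif word on either strand in the 250 bases before the annotated start (horizontal axis, in bases, start at the right edge) of the 38 replication genes with a RefSeq window (rows). Circles are the 4 E2F words, diamonds the E2F variant word, squares the NF-Y box word and triangles the CHR words. UHRF1, POLE and MCM7 have circles within 11 bases of the start, and CDC6, CDT1, CDC45 and POLA2 have diamonds 17 to 21 bases before it.

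Knockdown of SOX2 raised most of the same 44 genes by small amounts. Averaged over both siRNAs, 35 members were higher and 4 lower than in si-control, where 27.6% of the 16750 genes tested were higher and 28.7% lower. Both siRNAs passed alone in the same direction for 25 higher members (18.6% of all genes) and 2 lower ones, GINS4 and RPA3 (19.3%), and in opposite directions for none (1.01%). All 4 knockdown libraries lay above all 3 control libraries for 30 members (24.5%) and below them for 2 (25.0%). The median difference was 0.24, against 0.0071 over all genes, and that of single libraries was 0.27 and 0.27 with siRNA 1 and 0.19 and 0.19 with siRNA 2. CDT1, MCM4, MCM6, PRIM1 and POLD2 did not pass, with differences of -0.071 to 0.025.

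Among the licensing genes 8 of 11 were higher and none lower. ORC6 (ENSG00000091651.8, GRCh38.p14 chromosome 16, 46689659 to 46698394) had 1728 and 1946 normalized counts with SOX2 siRNA 1 and 1481 and 1364 with SOX2 siRNA 2, against 1238, 1105 and 1178 in si-control, a difference of 0.46 ± 0.052 (adjusted p = 1.83e-08). MCM2 had 6889.7 and 6422 normalized counts with SOX2 siRNA 1 and 5864 and 5826 with SOX2 siRNA 2, against 4617, 4699 and 4382 in si-control (0.45 ± 0.036, adjusted p = 2.95e-11). Both genes were above every control library with either siRNA, and further with siRNA 1 than with siRNA 2 (differences of 0.37 ± 0.068 and 0.19 ± 0.047). CDC6 had 2859.8 and 2845 normalized counts with SOX2 siRNA 1 and 2761 and 2894 with SOX2 siRNA 2, against 2365, 2429 and 2383 in si-control (0.25 ± 0.037), with a difference of 0.013 ± 0.049 between the siRNAs that did not pass. GMNN had 1188 and 1320.4 normalized counts with SOX2 siRNA 1 and 1218 and 1110.0 with SOX2 siRNA 2, against 1049.5, 1113 and 1071 in si-control (0.16 ± 0.052, adjusted p = 0.00918). CDT1 had 2510.3 and 2054 normalized counts with SOX2 siRNA 1 and 2168 and 2130.0 with SOX2 siRNA 2, against 2369.8, 2345 and 2248 in si-control, and its libraries overlapped the controls. GMNN no longer passed without si-control replicate 1 (adjusted p = 0.0512) or SOX2 siRNA 2 replicate 1 (0.0618), nor did MCM10 without si-control replicate 2 (0.0555) or replicate 3 (0.0600).

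Of the helicase activation genes 5 were higher and 1 lower. GINS3 had 346 and 310.4 normalized counts with SOX2 siRNA 1 and 341 and 341 with SOX2 siRNA 2, against 253, 217 and 197 in si-control, 0.59 ± 0.086 (adjusted p = 1.45e-06). GINS4 had 367 and 361 normalized counts with SOX2 siRNA 1 and 391 and 361 with SOX2 siRNA 2, against 449, 479 and 447 in si-control, -0.31 ± 0.074 (adjusted p = 0.000812). Neither gene's libraries overlapped the controls, so that these partners in a single complex lay on opposite sides. CDC45 had 1391 and 1325 normalized counts with SOX2 siRNA 1 and 1244 and 1192 with SOX2 siRNA 2, against 969.6, 976 and 1032 in si-control (0.37 ± 0.051, adjusted p = 5.41e-07). All 6 clamp and loader genes were higher, by 0.11 for RFC2 to 0.38 for RFC5. RFC2 lost its call without si-control replicate 1 or 3, either NKX2-1 siRNA 2 library, SOX2 siRNA 1 replicate 1 or SOX2 siRNA 2 replicate 2 (adjusted p = 0.0520 to 0.156). PCNA had 7824 and 8150.3 normalized counts with SOX2 siRNA 1 and 8013 and 7692 with SOX2 siRNA 2, against 7114, 7170.4 and 7140.3 in si-control (0.15 ± 0.031, adjusted p = 0.000158), a small shift over tightly spaced controls.

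The polymerases included the largest rise and the largest fall of the SOX2 knockdown. POLD1 (ENSG00000062822.12, GRCh38.p14 chromosome 19, 50384323 to 50418018), the catalytic subunit of polymerase delta, had 2599 and 2109 normalized counts with SOX2 siRNA 1 and 2191 and 2196 with SOX2 siRNA 2, against 1448, 1467 and 1505 in si-control, 0.62 ± 0.053 (adjusted p = 1.21e-10). All 4 knockdown libraries were above all 3 controls, which lay close together. POLA1 had 1685 and 1798 normalized counts with SOX2 siRNA 1 and 1369.8 and 1449.5 with SOX2 siRNA 2, against 1183, 1217 and 1108 in si-control (0.42 ± 0.046, adjusted p = 1.27e-08). PRIM2, the large primase subunit, had 499.6 and 585 normalized counts with SOX2 siRNA 1 and 1003 and 1021 with SOX2 siRNA 2, against 956, 893 and 975 in si-control, an average difference of -0.35 ± 0.057. That fall came with siRNA 1 alone (-0.80 ± 0.069, adjusted p = 1.45e-10), since siRNA 2 gave 0.11 ± 0.069 (adjusted p = 0.214). POLD3 showed the same split with 880.4 and 916 normalized counts with SOX2 siRNA 1 and 1456 and 1452 with SOX2 siRNA 2, against 1378, 1422 and 1336 in si-control, or -0.62 ± 0.054 with siRNA 1 and 0.077 ± 0.054 with siRNA 2.

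RPA2 was higher by 0.38 ± 0.042 and RPA3 was lower, with 806 and 888 normalized counts with SOX2 siRNA 1 and 838 and 787 with SOX2 siRNA 2, against 1057, 1010.2 and 987 in si-control (-0.30 ± 0.055, adjusted p = 5.1e-05). All 4 nucleotide genes were higher. TYMS had 549 and 615 normalized counts with SOX2 siRNA 1 and 628 and 573 with SOX2 siRNA 2, against 416, 484 and 403 in si-control (0.45 ± 0.070, adjusted p = 4.63e-06), and TK1 was higher by 0.43 ± 0.056 and RRM1 by 0.32 ± 0.036. RRM2, the regulated subunit of ribonucleotide reductase, had 4905 and 5157 normalized counts with SOX2 siRNA 1 and 6836 and 6786 with SOX2 siRNA 2, against 4606, 4365 and 4491 in si-control (0.38 ± 0.033, adjusted p = 1.52e-10), with every siRNA 2 library above every siRNA 1 library. UHRF1 had 2673 and 2633 normalized counts with SOX2 siRNA 1 and 2247 and 2333 with SOX2 siRNA 2, against 2024, 1949 and 1962 in si-control (0.32 ± 0.038, adjusted p = 4.9e-08), and CLSPN (0.25 ± 0.050), TIPIN (0.24 ± 0.064), FEN1 (0.16 ± 0.034) and LIG1 (0.25 ± 0.046) were higher too. For UHRF1, every knockdown library stood above every control.

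**Figure D4:**
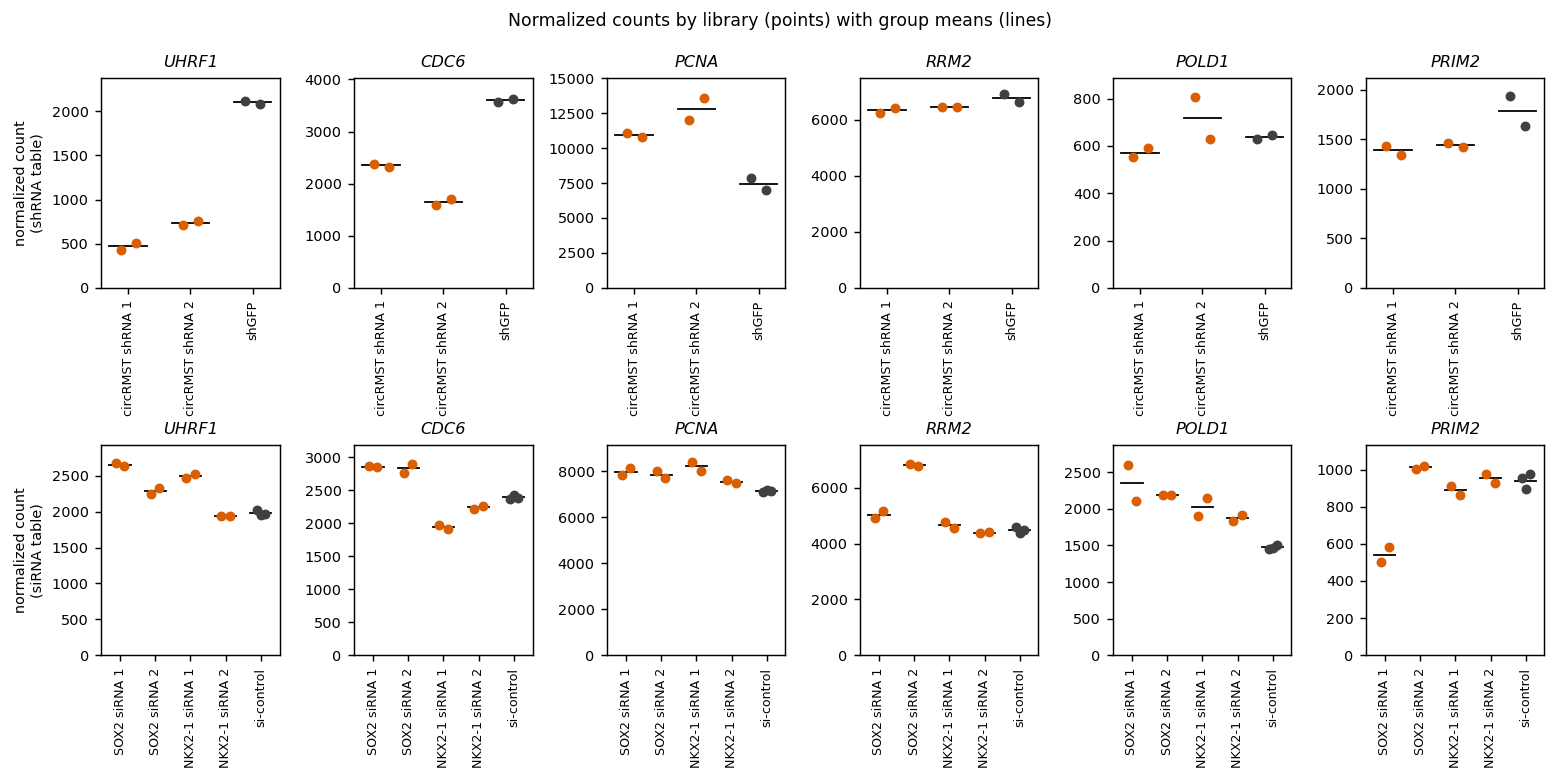
Points are normalized counts of single libraries and lines are group means for 6 replication genes in the shRNA libraries (upper row) and the siRNA libraries (lower row), with knockdown groups in orange to the left of the control in grey and each axis starting at 0. UHRF1 reaches at most 761 with circRMST shRNAs against 2118 and 2085 in shGFP, and PRIM2 is low (499.6 and 585) with SOX2 siRNA 1 and not with SOX2 siRNA 2.

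The 2 SOX2 siRNAs were compared directly. With siRNA 1, 11 members were higher than with siRNA 2 (8.08% of all genes) and 4 lower (10.4%). PRIM2 (-0.90 ± 0.075) and POLD3 (-0.69 ± 0.059) had the largest differences, followed by RPA1, which had 6268 and 6499.8 normalized counts with siRNA 1 and 4322 and 4334 with siRNA 2 (0.56 ± 0.042). RRM2 (-0.44 ± 0.044) and TIPIN (-0.40 ± 0.084) were lower with siRNA 1. Of the 10 members that were higher on average but not with both siRNAs, GMNN, MCM10, RFC1, RFC2, RFC3, POLE, RPA1 and LIG1 passed with siRNA 1 alone, and POLE2 and TIPIN with siRNA 2 alone. The siRNA that did not pass gave -0.034 ± 0.039 for RPA1, -0.018 ± 0.043 for POLE, 0.041 ± 0.053 for RFC2 and 0.041 ± 0.077 for TIPIN. POLE also lost its call on average with quantile normalization (adjusted p = 0.115). Other lists were read here too. Of 33 further replication genes 21 were higher and 2 lower (median 0.20), with CHTF18 (0.61) highest and POLD4 (-0.90), the smallest subunit of polymerase delta, lowest. Of the E2F and S phase entry genes 9 of 15 were higher and none lower (median 0.17), E2F2 by 0.70 and E2F1 by 0.50. Of the mitosis genes 27 of 28 were higher and none lower (median 0.36), with cyclin A2 (CCNA2) at 0.63.

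Knockdown of NKX2-1, set against the same si-control libraries, gave fewer calls. On average 16 were higher and 3 lower, where 18.5% of the 16750 genes were higher and 21.4% lower. Both siRNAs passed alone for 6 higher members (8.88%) and for no lower one (10.2%), and the libraries lay above all controls for 10 (15.9%) and below for 2 (18.0%). The median difference was 0.062, against -0.0043 over all genes. With equal library totals 23 members were higher and 2 lower, and over all genes 4224 were higher and 2643 lower, against 3092 and 3592. The count of lower members was 1 without si-control replicate 2 or without NKX2-1 siRNA 2 replicate 2, where GINS4 and POLD3 lost their calls.

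The 6 members higher with both siRNAs were GINS3, POLD1, POLA1, RFC4, TYMS and RFC3. GINS3 had 319 and 323 normalized counts with NKX2-1 siRNA 1 and 326 and 317 with NKX2-1 siRNA 2, against 253, 217 and 197 in si-control (0.53 ± 0.086, adjusted p = 1.37e-05). POLD1 had 1902 and 2142 normalized counts with NKX2-1 siRNA 1 and 1839.6 and 1919 with NKX2-1 siRNA 2, against 1448, 1467 and 1505 in si-control (0.40 ± 0.053, adjusted p = 7.45e-07). POLA1 had 1605 and 1579 normalized counts with NKX2-1 siRNA 1 and 1456 and 1385 with NKX2-1 siRNA 2, against 1183, 1217 and 1108 in si-control (0.36 ± 0.046, adjusted p = 4.02e-07). All 4 knockdown libraries of these 3 genes exceeded every control. RFC4 had 1213 and 1143 normalized counts with NKX2-1 siRNA 1 and 1087 and 1095 with NKX2-1 siRNA 2, against 881, 912 and 888 in si-control (0.34 ± 0.047), and TYMS had 533 and 524 normalized counts with NKX2-1 siRNA 1 and 583 and 544 with NKX2-1 siRNA 2, against 416, 484 and 403 in si-control (0.33 ± 0.070). RFC3 had a difference of 0.30 ± 0.043. The lower members were GINS4 (-0.25 ± 0.074), CDC6 and POLD3 (-0.13 ± 0.045). POLD3 was lower with siRNA 2 (-0.27 ± 0.054), while siRNA 1 gave 0.015 ± 0.054 and did not pass, and GINS4 passed with siRNA 2 alone as well. CDC6 had 1974 and 1910.2 normalized counts with NKX2-1 siRNA 1 and 2210.4 and 2266 with NKX2-1 siRNA 2, against 2365, 2429 and 2383 in si-control (-0.20 ± 0.037, adjusted p = 0.000101), lower with siRNA 1, while siRNA 2 alone did not pass (adjusted p = 0.0998).

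Other members with values in full passed by small amounts or not at all. MCM2 had 5511 and 5768 normalized counts with NKX2-1 siRNA 1 and 5017 and 4692 with NKX2-1 siRNA 2, against 4617, 4699 and 4382 in si-control (0.20 ± 0.036), and UHRF1 had 2468 and 2522 normalized counts with NKX2-1 siRNA 1 and 1943 and 1948 with NKX2-1 siRNA 2, against 2024, 1949 and 1962 in si-control (0.16 ± 0.038). For MCM2 the siRNA 1 libraries stood further above the controls than the siRNA 2 libraries, of which 1 lay among the controls. For UHRF1 only the siRNA 1 libraries were above the controls (0.33 ± 0.045), and siRNA 2 gave -0.024 ± 0.045. PCNA had 8387 and 8027 normalized counts with NKX2-1 siRNA 1 and 7602 and 7491 with NKX2-1 siRNA 2, against 7114, 7170.4 and 7140.3 in si-control (0.14 ± 0.031, adjusted p = 0.000575). Its siRNA 2 libraries lay closer to the controls. CDC45 had 1041 and 1098 normalized counts with NKX2-1 siRNA 1 and 975 and 866 with NKX2-1 siRNA 2, against 969.6, 976 and 1032 in si-control (-0.0012 ± 0.051). RRM2 had 4760.4 and 4540.4 normalized counts with NKX2-1 siRNA 1 and 4375 and 4408 with NKX2-1 siRNA 2, against 4606, 4365 and 4491 in si-control (0.010 ± 0.033). Neither gene passed. CDT1 had 2375 and 2708 normalized counts with NKX2-1 siRNA 1 and 2338 and 2324 with NKX2-1 siRNA 2, against 2369.8, 2345 and 2248 in si-control (0.067 ± 0.052). GMNN had 1262 and 1153 normalized counts with NKX2-1 siRNA 1 and 1168 and 1114 with NKX2-1 siRNA 2, against 1049.5, 1113 and 1071 in si-control (0.12 ± 0.052). Neither of these licensing genes passed. Of the 10 members that were higher on average but not with both siRNAs, 9 (ORC6, MCM2, MCM3, MCM5, PCNA, POLE, RPA2, RRM1 and UHRF1) passed with siRNA 1 alone and POLD2 with siRNA 2 alone. MCM3 and MCM5, which passed on average, lost their calls in some fits that left out 1 library (adjusted p = 0.0572 to 0.112 for MCM3 and 0.0550 to 0.166 for MCM5), as did POLD2 (0.0874 to 0.162), POLD3 (0.0556 to 0.125) and RPA2 (0.0511 to 0.137).

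The NKX2-1 siRNAs differed from each other in 23 members, where siRNA 1 gave 20 higher (11.7% of all genes) and 3 lower levels (14.8%) than siRNA 2. In 4 members the siRNAs passed in opposite directions, as they did in 1.78% of all genes. LIG1, the ligase of the lagging strand, had 1572 and 1676 normalized counts with NKX2-1 siRNA 1 and 1155 and 1153 with NKX2-1 siRNA 2, against 1413, 1408 and 1376 in si-control, or 0.21 ± 0.056 with siRNA 1 and -0.28 ± 0.056 with siRNA 2. Its siRNA 1 libraries lay above every control and its siRNA 2 libraries below. MCM4 had 10528 and 10522 normalized counts with NKX2-1 siRNA 1 and 9026 and 8958 with NKX2-1 siRNA 2, against 9592, 9666 and 9854 in si-control, or 0.12 ± 0.033 with siRNA 1 and -0.11 ± 0.033 with siRNA 2. GINS2 had 2144 and 2141 normalized counts with NKX2-1 siRNA 1 and 2648 and 2745 with NKX2-1 siRNA 2, against 2289, 2362 and 2434 in si-control, or -0.14 ± 0.045 with siRNA 1 and 0.19 ± 0.045 with siRNA 2. RPA3 had 918 and 814 normalized counts with NKX2-1 siRNA 1 and 1126 and 1192 with NKX2-1 siRNA 2, against 1057, 1010.2 and 987 in si-control, or -0.23 ± 0.066 with siRNA 1 and 0.19 ± 0.066 with siRNA 2. For GINS2 and RPA3 the order was the other way round from LIG1, with siRNA 1 below siRNA 2. None of these 4 genes passed on average, and the number of such genes was 1 to 5 across the other settings and left-out libraries. NKX2-1 siRNA 1 replicate 2 was also the deepest library, at 50.1 M reads, and the part of its depth in these differences was not tested.

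**Figure D5:**
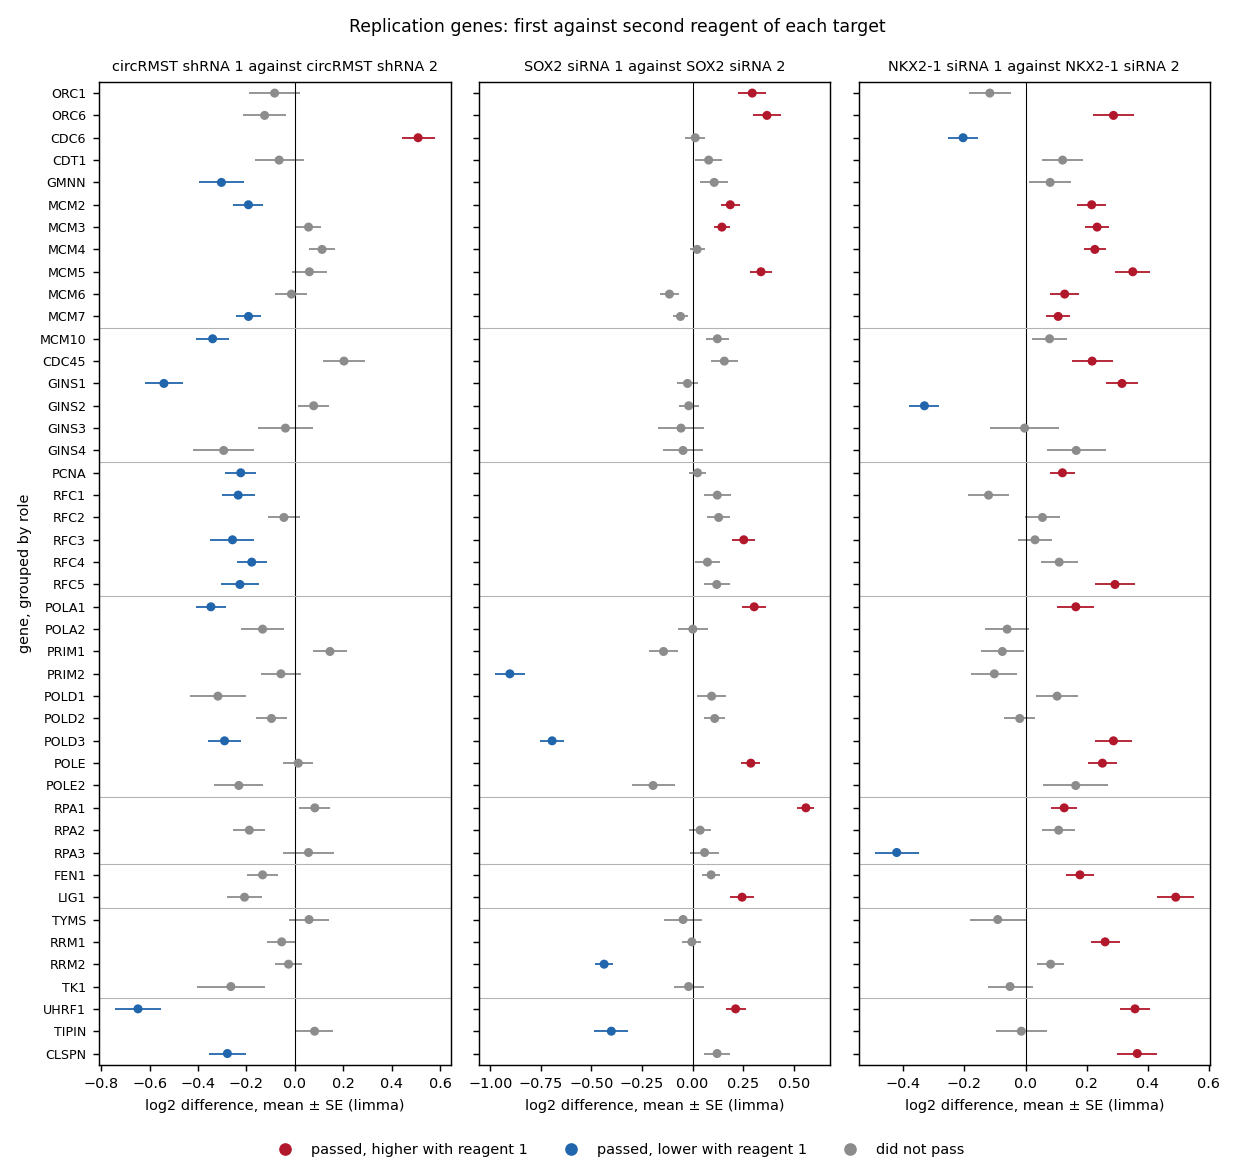
Points are log2 differences with SE bars from limma between the first and the second reagent against the same target, for the 44 replication genes (rows, in role order), with a panel each for circRMST, SOX2 and NKX2-1. Red and blue points passed as higher and lower with reagent 1, and grey points did not pass. PRIM2 and POLD3 lie farthest left in the SOX2 panel, and 20 points are red in the NKX2-1 panel.

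The 2 transcription factor knockdowns were also set against each other, a contrast in which si-control cancels. Of the 44 members, 26 were higher with SOX2 than with NKX2-1 siRNAs and 5 lower, where 27.9% of all genes were higher and 28.0% lower, and the median difference was 0.17. With equal library totals 23 were higher and 8 lower, and over all genes 3716 were higher and 5469 lower, against 4668 and 4686. The count of lower members was 3 when NKX2-1 siRNA 1 replicate 2, NKX2-1 siRNA 2 replicate 1 or SOX2 siRNA 2 replicate 2 was left out. CDC6 had 2859.8 and 2845 normalized counts with SOX2 siRNA 1 and 2761 and 2894 with SOX2 siRNA 2, against 1974 and 1910.2 with NKX2-1 siRNA 1 and 2210.4 and 2266 with NKX2-1 siRNA 2, the largest difference at 0.45 ± 0.034 (adjusted p = 1.53e-11), with no overlap between the targets. TK1 followed with 2159 and 1699.8 normalized counts with SOX2 siRNA 1 and 2020.2 and 1867 with SOX2 siRNA 2, against 1472 and 1429.8 with NKX2-1 siRNA 1 and 1526 and 1479.7 with NKX2-1 siRNA 2 (0.39 ± 0.052). CDC45 had 1391 and 1325 normalized counts with SOX2 siRNA 1 and 1244 and 1192 with SOX2 siRNA 2, against 1041 and 1098 with NKX2-1 siRNA 1 and 975 and 866 with NKX2-1 siRNA 2 (0.37 ± 0.047), and RRM2 had a difference of 0.37 ± 0.031. On the other side were PRIM2 (-0.31 ± 0.053), RPA3 (-0.27 ± 0.051), POLD3 (-0.14 ± 0.042), CDT1 (-0.14 ± 0.048) and POLD2 (-0.11 ± 0.036). CDT1 and POLD2 each lost the call when NKX2-1 siRNA 1 replicate 2, NKX2-1 siRNA 2 replicate 1, SOX2 siRNA 1 replicate 2 or SOX2 siRNA 2 replicate 2 was left out (adjusted p = 0.0503 to 0.167 for CDT1 and 0.0510 to 0.0801 for POLD2), and the CDT1 difference was -0.066 without SOX2 siRNA 1 replicate 2 and -0.091 without NKX2-1 siRNA 1 replicate 2. Against si-control, PRIM2 was lower with SOX2 siRNA 1 alone, and POLD3 with SOX2 siRNA 1 (-0.62 ± 0.054) and with NKX2-1 siRNA 2 (-0.27 ± 0.054). GINS3 (0.058 ± 0.080, adjusted p = 0.564), RFC4 (-0.0016 ± 0.043), PCNA (0.0090 ± 0.028) and POLE (-0.0044 ± 0.033), which were higher on average with each target against si-control, did not pass in this contrast. For POLE both averages came from siRNA 1, since NKX2-1 siRNA 2 (0.0048 ± 0.043), like SOX2 siRNA 2, did not pass.

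Of 33 further replication genes, 14 were higher and 5 lower with NKX2-1 siRNAs, and 19 were higher and 4 lower with SOX2 than with NKX2-1 siRNAs. Of 15 E2F and S phase entry genes 6 were higher and 2 lower with NKX2-1 siRNAs, and 7 were higher and none lower with SOX2 than with NKX2-1 siRNAs. Mitosis genes gave 16 of 28 higher and none lower with NKX2-1 siRNAs (median 0.13), and 25 of 28 higher with SOX2 than with NKX2-1 siRNAs. Neuroendocrine markers summed to 39565 to 44582 normalized counts with SOX2 siRNAs and 44589.6 to 50289 with NKX2-1 siRNAs, against 41147 to 41675 in si-control. Of the 6 markers 1 was higher and 3 lower with SOX2 siRNAs, and 3 were higher and none lower with NKX2-1 siRNAs. Of the 4 stroma, vessel and blood markers tested 1 was higher and 1 lower with SOX2 siRNAs, and 2 were lower with NKX2-1 siRNAs. Their part in the replication gene results was not tested.

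Set side by side, the circRMST and SOX2 knockdowns, which share no control library, gave 9 members higher in both, 3 lower in both (PRIM2, GINS4 and RPA3) and 15 that were lower with circRMST shRNAs and higher with SOX2 siRNAs. Of the 15846 genes tested in both tables, 9.08% were higher in both, 7.89% lower in both and 8.63% lower with circRMST shRNAs and higher with SOX2 siRNAs. The 15 were ORC1, ORC6, CDC6, GMNN, MCM10, CDC45, GINS1, GINS2, RFC1, RFC3, POLA1, POLA2, TK1, UHRF1 and CLSPN. These calls are on the average of both reagents. Of the 15, POLA1 and POLA2 did not pass with each shRNA alone. GMNN, MCM10, RFC1 and RFC3 did not pass with each SOX2 siRNA alone. PRIM2 was lower with SOX2 siRNA 1 and not with SOX2 siRNA 2. Of the members higher in both knockdowns, RFC2, POLE and TYMS did not pass with every reagent. No member was higher with circRMST shRNAs and lower with SOX2 siRNAs, as 11.2% of those genes were. The joint counts follow largely from the separate ones, and whether the 15 exceed what those alone would give was not tested. Of the 44 members 18 were lower with circRMST shRNAs, and 35 were higher and 4 lower with SOX2 siRNAs. The tables were normalized separately and differ in RNA selection, duration and delivery, so no test was made across them. GINS3 was the one GINS gene higher in all 3 averages, and GINS4 was lower in all 3. Outside that complex MCM2, MCM3, MCM5, PCNA, POLE, RPA2 and TYMS were also higher in all 3. MCM4 and PRIM1, 2 members, passed in none of the 3 averages. The share of all genes with such calls was not counted, and the SOX2 and NKX2-1 averages share the si-control libraries. In some alternative fits MCM3, MCM5, POLE, RPA2 and GINS4 lost the NKX2-1 call, POLE the SOX2 call and TYMS the circRMST call.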

How the data were processed

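RNA sequencing of 17 SHP77 libraries was analysed, in tables of normalized counts (a signal per gene and library) that the authors deposited, with whole reads recovered as value over the smallest step in a column (100% whole within 0.05 reads). The submitters' processing notes name cutadapt 2.5, STAR 2.5.2b, DESeq2 and the build hg38. The counting tool, annotation and use of strand are not given in the sources used here, so reads of overlapping genes are uncertain. Left out were 55 and 38 non-human features and 7 and 11 second copies of pseudoautosomal genes.

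In R 4.3.3, limma 3.58.1 was fitted per table to log2(normalized count + 1), using group means and eBayes with a trend, on genes with a mean of at least 10 (19068 and 16750), and both reagents of a target were averaged before the control was subtracted. Fold changes on this scale understate the change of low genes. Alternatives were a pseudocount of 5, no filter, a minimum of 50, equal totals, equal totals without mitochondrial and 7SL genes, quantile normalization, edgeR 4.0.16 and DESeq2 1.42.0 on the recovered reads, a replicate block, and leaving out each library. Libraries were grouped by the labels. The series text calls replicates biological without naming separate cultures, so p-values cover only library-to-library spread, part of which may be technical. Replicate pairs differed by a chi-square of 1.52 to 6.02 per degree of freedom, so none was a copy. The steps were tested on simulated data.

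The members and gene lists were chosen with earlier results of these data known. Values were given in full for MCM2, CDC6, CDT1, GMNN, CDC45, PCNA, POLA1, RRM2, TYMS and UHRF1 and for the 4 largest rises and falls that passed in each comparison (for knockdowns with each reagent alone too), and members with opposed reagents or knockdowns were named. Of the neuroendocrine marker list, 1 gene is not reported here.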

Additional observations from a re-analysis of the deposited data

How the results depend on the processing

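No member that passed changed direction under any of 15 alternatives for circRMST or 20 for each other comparison. Of the members that passed, 25 of 30 (circRMST), 34 of 39 (SOX2), 11 of 19 (NKX2-1) and 25 of 31 (SOX2 against NKX2-1) passed in every alternative. Of those that did not, 9 of 14, 4 of 5, 12 of 25 and 6 of 13 changed sign in at least 1. In each comparison some members that did not pass in the main fit passed in at least 1 alternative. The members' median for circRMST was -0.20 with equal totals, -0.14 with quantile normalization, -0.11 with equal totals that left out mitochondrial and 7SL genes, and -0.096 to -0.046 when 1 library was left out. For SOX2 it was 0.18 with quantile normalization, 0.21 with equal totals that left out mitochondrial and 7SL genes, and 0.23 to 0.25 with 1 library left out. For NKX2-1 it was 0.12 with equal totals and 0.083 with equal totals that left out mitochondrial and 7SL genes, and 1 to 3 members were lower with 1 library left out. For SOX2 against NKX2-1, 3 members were lower with no filter and 8 under each of the other scalings, the medians were 0.11 with equal totals, 0.11 with quantile normalization and 0.11 with equal totals that left out mitochondrial and 7SL genes, and leaving out 1 library gave 3 to 6 lower members and medians of 0.15 to 0.18. The cause of these shifts was not tested. Without the filter, 10409 of all 41686 human genes were lower with circRMST shRNAs, against 4936 of the 19068 genes tested with it. These counts come from sets of different size and are not a shift in share.

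Libraries with the same replicate number did not deviate together (correlations of -0.109 to 0.0468), so they share only a number. With a replicate block, 12 members were higher and 18 lower for circRMST, 33 and 4 for SOX2, 12 and 3 for NKX2-1, and 25 and 5 for SOX2 against NKX2-1. With 2 or 3 libraries per group, small differences could be missed.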
